A study of Bos taurus with 12 samples.

Results

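The genes described here are CD68, CD14, CD163, CSF1R, GPNMB, SPIC, SLC11A1, CHI3L1, MSR1 and MRC1, 10 genes known from macrophages, out of 12906 genes that could be tested in biopsies of bovine endometrium. They were read by 22 of the 43622 probes kept on the array, namely every probe that carries one of these names in the scanner files, and all 22 passed the filter on dim probes. The genes were chosen by their measured changes against day 0, most for an early maximum and GPNMB and SPIC for their level on day 14. Changes against day 0 are therefore given as a description and support nothing by themselves.

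Povidone-iodine, an antiseptic that releases iodine, was put into the uterus of 3 cows, and their endometrium, the lining of the uterus, was biopsied with forceps on days 0, 2, 7 and 14, alternating between the uterine horns. The groups are thus day 0, day 2, day 7 and day 14 after povidone-iodine, each with 1 biopsy of cow 1, cow 2 and cow 3, all labelled as endometrium of fertile cows, and each biopsy gave total RNA that was labelled with cyanine-3 and read on its own one-colour Agilent array. Every cow received the antiseptic, so its effect cannot be told apart from that of time, cycle stage or earlier biopsies. If the horn changed at each biopsy, days 0 and 7 share a horn and days 2 and 14 share the other. Horn and day can then not be told apart. The labels used here give no age or breed and do not say whether the day 0 biopsy came before the antiseptic.

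Macrophages are phagocytes that settle in tissues or arise there from blood monocytes, and they clear microbes, dead cells and debris. They depend on the growth factors CSF1 and IL34 acting through the receptor CSF1R, recognise bacteria and altered molecules through CD14 and through scavenger and lectin receptors, and degrade what they take up in lysosomes. In the endometrium they take part in the defence after mating, calving and infection and in repair of the lining.

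The sample of each array had to be settled before any comparison. Each column of the authors' value table had 1 scanner file at a correlation of 1.0 and every other file at 0.519 or less, but the sample named by the column was the sample linked to that file for only 2 of 12 arrays. Samples were named by the table columns, by which each of 3 slides holds the 4 days of 1 cow in order, so that cow and slide, and day and position on the slide, cannot be told apart. With the samples of the file links, none of the 10 genes passed the test on any day.

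The share of probes well above background ran from 63.2% on the day 2 array of cow 3 to 76.0%, and with 3 arrays a day the number of arrays is what limits precision. The epithelial marker EPCAM had log2 signals of 3.81 to 5.35 over the 12 arrays and was well above background on all of them, as were KRT8, KRT18, the stromal marker VIM and the uterine gene HOXA10. Epithelial signal was uneven on day 2: over 10 epithelial markers the mean log2 signal was 0.31 in cow 3, against 2.25 in cow 1 and 2.03 in cow 2. That array was the lowest of all 12 for this list, and its part in the day 2 changes was not tested. The day 7 array of cow 3 also stood apart from those of cows 1 and 2: over 24 other macrophage and monocyte markers its mean log2 signal was -1.28, against 0.30 in cow 1 and -0.05 in cow 2. In bulk tissue, more cells of a type and more RNA per cell cannot be told apart.

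The log2 signal of a probe is the log2 of its processed intensity minus the log2 of the 75th percentile of its array, so 0 is the level of the 75th percentile. Levels are compared between days for 1 probe and never between probes. The probe with the highest mean over the 12 arrays stands for a gene. A change is the mean log2 difference between 2 days with its standard error (SE) from a limma fit of day with the cow as block, and it passed the test where the p-value, adjusted after Benjamini-Hochberg over 33539 probes, was below 0.05.

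Probe letters are shown for the genes on which the day 14 values and the differences between probes of 1 gene turn. They come from the deposited scanner files, run 5′ to 3′ and are 60 bases long or a 30-base end of the probe. Capitals mark AATAAA, the commonest polyadenylation signal, searched on the strand of the probe only. It occurred in 4 of the 22 probes, from 3 genes, and in 4081 of all 43622 probes (9.36%). Positions are those of the file headers, in HGSC Btau 3.1. Both GPNMB probes (chr4:33228129-33228188 and chr4:33228511-33228570, plus strand) and both SPIC probes (chr5:70259585-70259644 and chr5:70259043-70259102, plus strand) are shown first, since they read the genes of day 14.
GPNMB A_73_P250771, bases 31 to 60: aacagaacaggtcagcttttagtaagctgt
GPNMB A_73_115967, bases 31 to 60: tcctttttccttcctgaaaAATAAAgtatg
SPIC A_73_P202847, bases 31 to 60: atttgaaagtatagactaaatgtccttctt
SPIC A_73_114565, bases 1 to 60: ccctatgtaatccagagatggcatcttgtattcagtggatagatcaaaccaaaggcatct

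The probes of SLC11A1 (chr2:110804801-110804860 and chr2:110796311-110796370, plus strand) and of MSR1 (chr27:22902421-22902480 and chr27:22940613-22940672, plus strand) are shown because the 2 probes of each gene changed by unequal amounts. The files name A_73_102799 for transcript variant 2 of MSR1 and A_73_115241 for transcript variant 1.
SLC11A1 A_73_P030091, bases 31 to 60: ctgaaaatgctaAATAAAtgctgttgtgct
SLC11A1 A_73_P106276, bases 31 to 60: gcttcgatgatcaAATAAAaatatcatctc
MSR1 A_73_102799, bases 1 to 30: ttcaccagcctgcttcatttaatatccttg
MSR1 A_73_115241, bases 1 to 30: cctgttcgcacgacgaagatgctggggtca

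The 3 probes of CHI3L1, which carry the largest changes of the 10 genes on day 7, have no position in the files. The CD68 probe (chr19:27817263-27817322, plus strand) and 1 of the CSF1R probes (chr7:60850877-60850936, minus strand) are shown as those of the lysosomal marker and the growth factor receptor.
CHI3L1 A_73_P111931, bases 1 to 30: ttttggcaagctctgctgccacacagcctt
CHI3L1 A_73_P045236, bases 1 to 60: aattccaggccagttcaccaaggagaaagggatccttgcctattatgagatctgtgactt
CHI3L1 A_73_P471828, bases 1 to 60: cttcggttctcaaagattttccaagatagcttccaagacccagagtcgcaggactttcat
CD68 A_73_P399391, bases 1 to 60: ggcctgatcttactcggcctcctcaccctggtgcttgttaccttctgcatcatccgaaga
CSF1R A_73_P290976, bases 1 to 60: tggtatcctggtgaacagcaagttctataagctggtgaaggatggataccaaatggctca

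Most of the 10 genes were high on days 2 and 7, GPNMB was highest on day 14, and SPIC was high on days 2 and 14. CD68, SPIC, SLC11A1 and CHI3L1 passed the test as higher on day 2, 4 of 10 genes, where 1.9% of all genes did, and 11 of the 22 probes, where 1.63% of all probes did. On day 7 CD68, CD14, CSF1R, SPIC, SLC11A1 and CHI3L1 passed as higher, 6 of 10 genes against 10.9% of all genes, and 12 of 22 probes against 10.3% of all probes. On day 14 GPNMB, which had passed on neither earlier day, and SPIC passed as higher, 2 of 10 genes against 0.0465% of all genes, and 3 of 22 probes against 0.0596% of all probes. None passed as lower, where 1% of all genes did on day 2, 8.36% on day 7 and 0.0542% on day 14. The 3 comparisons share the day 0 arrays.

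The median log2 change of the 10 genes was 1.77 on day 2, 1.34 on day 7 and 0.71 on day 14, beside 0.01, 0.04 and 0.04 over all genes. All 10 genes were higher in 3 of 3 cows on day 2, 7 of them on day 7 and 5 on day 14. The share of all genes higher in 3 of 3 cows was not counted, so these numbers only describe the 10 genes. The counts of genes that passed rest on few arrays. Without cow 1 and without cow 2 the day 2 and day 7 counts were 0, and the day 14 count was 0 without any 1 of the 3 cows. Calls were lost over the whole array in these fits. Of all probes, 846 passed on day 2 and 6100 on day 7 with all cows. Without cow 1 these were 0 and 0, and without cow 2 0 and 213. At an unadjusted p below 0.05 in limma there were 8 of the 10 genes on day 2 without cow 1 and 6 without cow 2. Beside them stood 3284 and 4189 of all probes. On day 7 there were 7 and 6 of the genes, beside 6696 and 7462 of all probes. With all cows 7004 of all probes lay below it on day 2 and 11771 on day 7. The 10 genes were chosen by these changes, so the counts only describe them.

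**Figure D1:**
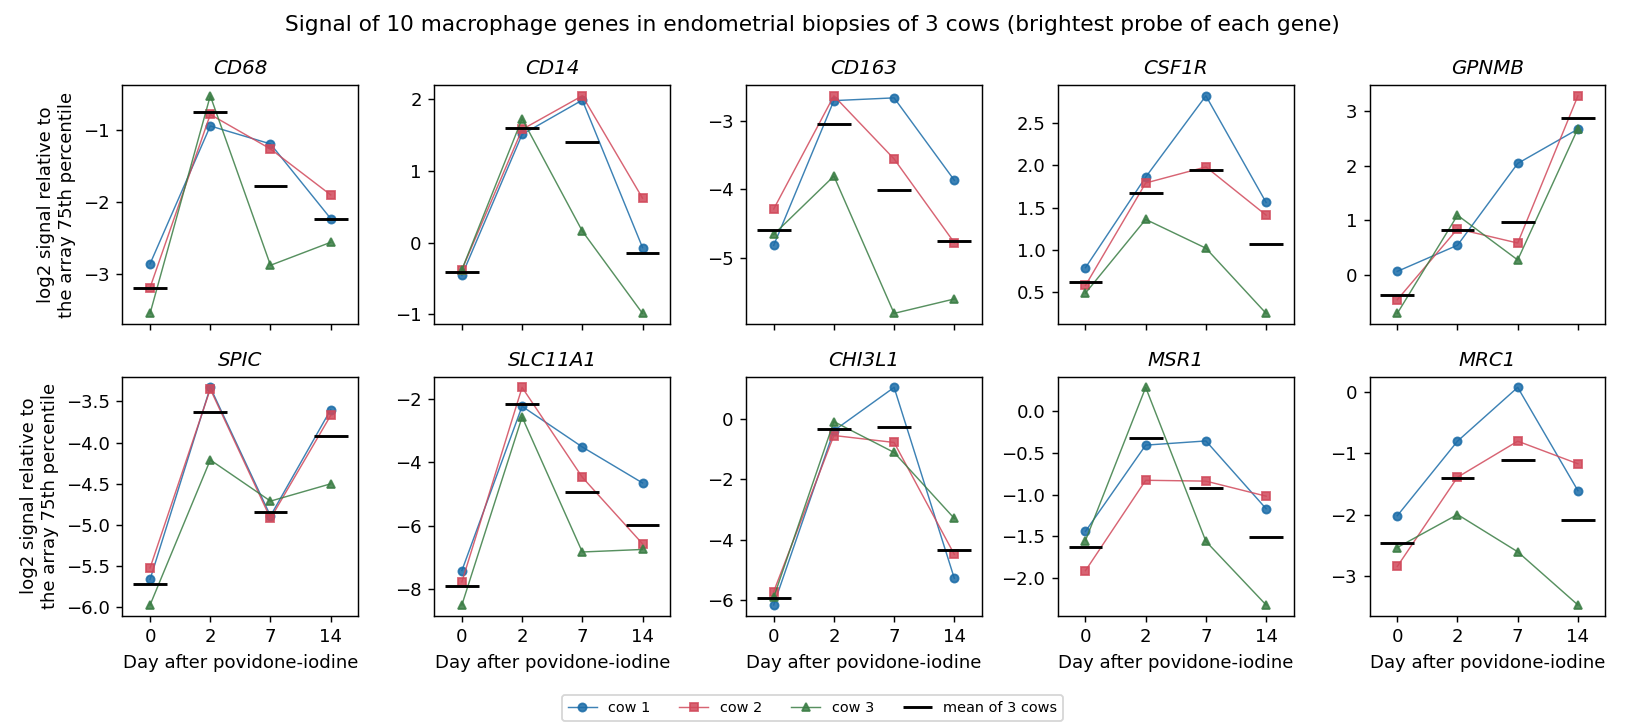
Log2 signal relative to the array's 75th percentile (vertical axis, own range in each panel) on days 0, 2, 7 and 14 (horizontal axis) for the brightest probe of each gene, with 1 line per cow and a bar at the mean of 3 cows. GPNMB is highest on day 14 in all 3 cows, and the day 7 points of cow 3 lie below those of cows 1 and 2 for 9 of the 10 genes, all but SPIC.

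CD14, the co-receptor that hands bacterial lipopolysaccharide to TLR4, was high on days 2 and 7 and back near its day 0 level on day 14. Its log2 signals in cows 1, 2 and 3 were -0.46, -0.38 and -0.38 at day 0 and 1.51, 1.58 and 1.73 at day 2, followed by 1.99, 2.05 and 0.16 at day 7 and -0.07, 0.62 and -0.99 at day 14. The 3 arrays of day 2 and the 3 of day 7 lay above all 3 of day 0, whereas those of day 14 lay on both sides. The change was 2.01 ± 0.43 (SE) on day 2, which missed the threshold, 1.81 ± 0.43 on day 7, which passed, and 0.26 ± 0.43 on day 14. Of the other 2 CD14 probes, A_73_116002 passed on both early days (1.81 on day 2 and 1.89 on day 7) and A_73_P108626 on neither (1.15 and 1.29).

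Among the scavenger and lectin receptors the changes differed by gene, by probe and by cow. MRC1, the mannose receptor, had log2 signals of -2.02, -2.85 and -2.54 at day 0 and -0.80, -1.39 and -2.00 at day 2, followed by 0.08, -0.80 and -2.61 at day 7 and -1.61, -1.17 and -3.48 at day 14. Cows 1 and 2 were highest on day 7 and cow 3 on day 2, and the changes of 1.07 on day 2, 1.36 ± 0.47 on day 7 and 0.38 on day 14 did not pass. The second MRC1 probe, whose 60 bases are placed over 627 bases of the genome, had changes of 0.63, 0.94 and 0.32.

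CD163, the receptor for haemoglobin bound to haptoglobin, passed on no day. In cows 1, 2 and 3 it had log2 signals of -4.82, -4.29 and -4.66 at day 0 and -2.71, -2.64 and -3.81 at day 2, followed by -2.67, -3.56 and -5.81 at day 7 and -3.87, -4.78 and -5.60 at day 14. All 3 arrays of day 2 lay above day 0, while on day 7 and day 14 cow 3 lay below every day 0 array. The changes were 1.54 ± 0.51 on day 2, 0.57 on day 7 and -0.16 on day 14.

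MSR1, the class A scavenger receptor for modified lipoproteins and bacterial surfaces, was read by 1 probe for each of 2 transcript variants, and these moved by unequal amounts. The variant 2 probe A_73_102799 had log2 signals of -2.59, -3.06 and -2.81 at day 0 and 0.00, 0.16 and 0.89 at day 2, followed by -0.20, -0.19 and -1.60 at day 7 and -1.80, -1.18 and -2.95 at day 14. It was higher on day 2 than on day 0 by 3.17 ± 0.49 (8.98-fold) and on day 7 by 2.15 ± 0.49, and both passed, while the 0.84 of day 14 did not.

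For variant 1, the brighter probe A_73_115241, the log2 signals were -1.44, -1.91 and -1.55 at day 0 and -0.41, -0.83 and 0.28 at day 2, followed by -0.36, -0.84 and -1.56 at day 7 and -1.17, -1.02 and -2.32 at day 14. Its changes of 1.31 ± 0.43, 0.71 and 0.13 passed on no day, although all 3 day 2 arrays lay above day 0. Within each cow, the day 2 change of the variant 2 probe exceeded that of the variant 1 probe by 1.56, 2.13 and 1.88, a mean of 1.86 ± 0.29 (SD, n = 3). On day 7 the excess was 1.44 ± 0.31 and on day 14 0.71 ± 0.24 (SD, n = 3), positive in 3 of 3 cows each time. The 2 probes start 38192 bases apart, and which transcripts each one binds was not tested.

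CSF1R, the receptor on which survival of macrophages depends, was highest on day 7 in cows 1 and 2. The arrays gave log2 signals of 0.79, 0.58 and 0.49 at day 0 and 1.86, 1.79 and 1.36 at day 2, followed by 2.82, 1.98 and 1.02 at day 7 and 1.56, 1.41 and 0.25 at day 14. The arrays of days 2 and 7 all lay above those of day 0. The change was 1.05 ± 0.29 on day 2, 1.32 ± 0.29 on day 7, which passed, and 0.45 on day 14. The other 2 CSF1R probes also passed on day 7 only, but A_73_118762 shares 52 of its 60 bases with the brightest probe and is no separate measurement. For A_73_P290976, which was not well above background on any day 0 array, the day 7 level was at least 2.08-fold higher. Such a bound sets the mean of the brighter day against, per array, the higher of the probe's own signal and the lowest signal well above background.

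CD68, a glycoprotein of lysosomes and endosomes used as a general macrophage marker, peaked on day 2 in every cow. Its log2 signals were -2.86, -3.19 and -3.55 at day 0 and -0.94, -0.78 and -0.52 at day 2, followed by -1.19, -1.26 and -2.88 at day 7 and -2.23, -1.90 and -2.56 at day 14. No array of day 2 or day 14 overlapped with day 0, but cow 3 on day 7 was level with cow 1 on day 0. The changes of 2.45 ± 0.36 on day 2 and 1.42 ± 0.36 on day 7 passed, and the 0.97 ± 0.36 of day 14 did not. The second probe, A_73_106271, gave 2.58, 1.62 and 1.18 and passed on day 2.

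SLC11A1 encodes a metal transporter of the phagosome membrane that withholds iron and manganese from engulfed bacteria. Its probe A_73_P030091 had log2 signals of -7.43, -7.79 and -8.52 at day 0, none of them well above background, and -2.22, -1.62 and -2.56 at day 2, followed by -3.51, -4.47 and -6.84 at day 7 and -4.65, -6.58 and -6.76 at day 14. Each cow was highest on day 2. The level was at least 21.3-fold higher on day 2 and at least 3.04-fold higher on day 7 than on day 0, and both passed, whereas the log2 change of 1.91 ± 0.56 on day 14 did not. On day 7 the signal of cow 3 was itself not well above background, so a day 7 rise is not shown for that cow.

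The second SLC11A1 probe, A_73_P106276, starts 8490 bases away and had a smaller change of 3.19 ± 0.62 on day 2, which passed, then 1.59 and 0.55. In cow 3 its day 7 change was -0.41. Within the cows the day 2 change of the first probe exceeded that of the second by 2.03, 2.89 and 2.86 (mean 2.59 ± 0.49, SD, n = 3). Both probes were dim on day 0, where only 1 array was well above background for the second, so that their ratio on that day is poorly measured.

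CHI3L1, a secreted glycoprotein related to chitinases that lacks their enzyme activity, had the largest changes of the 10 genes on day 7. In cows 1, 2 and 3 it had log2 signals of -6.15, -5.71 and -5.90 at day 0 and -0.39, -0.55 and -0.09 at day 2, followed by 1.04, -0.78 and -1.11 at day 7 and -5.27, -4.48 and -3.29 at day 14. Days 2 and 7 lay far above both day 0 and day 14 in all cows, and day 14 lay above day 0 in all cows. The change was 5.58 ± 0.63 on day 2 (47.9-fold) and 5.64 ± 0.63 on day 7 (49.8-fold), which both passed, and 1.58 ± 0.63 on day 14, which did not.

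The other CHI3L1 probes were not well above background on day 0. A_73_P045236 was at least 26.1-fold higher on day 2 and at least 25.9-fold higher on day 7, and A_73_P471828 at least 6.14-fold and at least 6.26-fold higher, and all 4 passed. With another background correction (normexp, offset 50, then quantile normalisation) changes of dim probes were smaller. On day 2 CHI3L1 changed by 3.55, SLC11A1 by 2.07 and SPIC by 0.77, and these kept passing. On day 7 CHI3L1 kept passing with 3.65, whereas SLC11A1 with 0.63 and SPIC with 0.23 no longer passed.

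**Figure D2:**
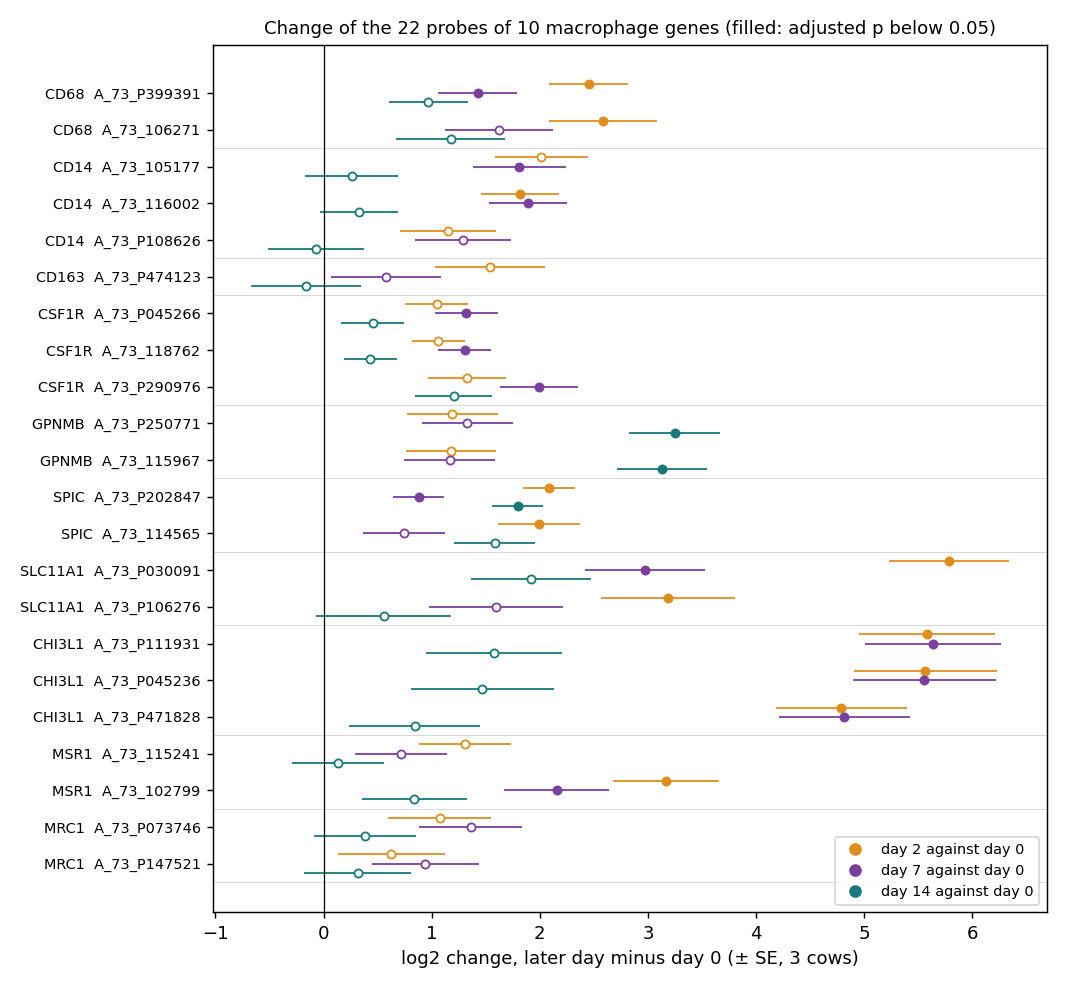
Log2 change of each of the 22 probes on day 2, day 7 and day 14 against day 0 (horizontal axis, mean of 3 cows ± SE of the limma fit), with filled points where the adjusted p was below 0.05. Fitted changes of probes not well above background on day 0 depend on their dim day 0 signals. CHI3L1 and SLC11A1 have the largest changes on day 2, and the filled day 14 points are the 2 of GPNMB at 3.25 and 3.13 and 1 of SPIC at 1.80.

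GPNMB, a glycoprotein of lysosomes and the cell surface known from lipid-laden and repair-type macrophages and also from pigment cells, had its maximum on day 14. The arrays gave log2 signals of 0.06, -0.46 and -0.71 at day 0 and 0.54, 0.84 and 1.09 at day 2, followed by 2.04, 0.58 and 0.27 at day 7 and 2.67, 3.28 and 2.68 at day 14. The 3 arrays of day 14 lay above the other 9. On day 14 the mean was 2.88 ± 0.35 and on day 0 it was -0.37 ± 0.39 (SD, n = 3 each).

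The day 14 change of GPNMB was 3.25 ± 0.42 (9.50-fold, adjusted p in limma 0.0464), with 2.61, 3.74 and 3.39 in cows 1, 2 and 3. The changes of 1.19 on day 2 and 1.33 on day 7 did not pass. The second probe, A_73_115967, gave 8.74-fold on day 14 (adjusted p in limma 0.0487) and again its 3 highest signals on that day, 2.12, 3.01 and 2.55. Both p-values lie close to the threshold. GPNMB missed it with arrays scaled to the median (0.0506) or without the filter on dim probes (0.0625), at about the same change, and with the samples of the file links the change was 0.47.

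SPIC, a transcription factor that in mice is needed for the macrophages of the spleen that recycle iron, had 2 maxima. Its log2 signals were -5.66, -5.52 and -5.97 at day 0 and -3.33, -3.35 and -4.21 at day 2, followed by -4.89, -4.92 and -4.71 at day 7 and -3.60, -3.67 and -4.50 at day 14. All arrays of days 2, 7 and 14 lay above those of day 0, and those of days 2 and 14 above those of day 7. Days 2 and 14 would share a uterine horn if horns alternated at each biopsy, and the part of the horn was not tested. The change was 2.08 ± 0.24 on day 2 (4.24-fold), 0.88 ± 0.24 on day 7 and 1.80 ± 0.24 on day 14 (3.47-fold), and all 3 passed. The day 7 call (adjusted p in limma 0.0381) was lost without the block (0.0780), with the normexp correction (change 0.23, adjusted p 0.252), with quantile normalisation, median scaling or no filter (0.0526 to 0.0563), with only the days compared (0.0907), without cow 1 (0.226) or cow 2 (0.177), and without the day 7 array of cow 3 (0.0798).

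SPIC is a dim gene. Its day 14 adjusted p in limma was 0.0479 with the cow as block and 0.0559 without the block, and the day 14 change was 0.64 with the normexp correction. The second probe, A_73_114565, well above background on 1 of 3 day 0 arrays, gave 1.99 ± 0.38 on day 2, which passed, then 0.74 and 1.58, which did not.

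Comparisons among the later days set the early against the late course. Since the genes were chosen for an early or a day 14 maximum, these differences restate that choice in part and are likewise a description. They share arrays with those above, and none of the 10 genes passed in any of the 3. Of all genes, 0.527% passed between day 7 and day 2, 0% between day 14 and day 2 (4226 probes at an unadjusted p below 0.05 in limma) and 0.139% between day 14 and day 7. At an unadjusted p below 0.05 in limma there were 5 of the 22 probes between day 7 and day 2, 16 between day 14 and day 2, and 12 between day 14 and day 7. Of all 33539 probes, 6111, 4226 and 6042 lay below it in the same order, so the 5 of 22 is near the share of all probes.

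On day 14, against day 7, GPNMB was 1.92 ± 0.42 higher (0.63, 2.71 and 2.42 in cows 1, 2 and 3; adjusted p in limma 0.0857). SPIC was 0.92 ± 0.24 higher (1.29, 1.25 and 0.21; adjusted p in limma 0.121). These were the genes that stood higher on day 14 than on day 7 in all 3 cows. CHI3L1, CD14, MRC1, CSF1R and MSR1 stood lower in all 3 cows, CHI3L1 with -4.06 ± 0.63 (-6.31, -3.70 and -2.17; adjusted p in limma 0.0549) and CD14 with -1.55 ± 0.43 (adjusted p in limma 0.136). The CHI3L1 probe A_73_P471828, which was not well above background on any day 14 array, was at least 6.99-fold lower on day 14 (adjusted p in limma 0.0549).

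The median log2 difference of the 10 genes, day 14 minus day 7, was -0.80, beside -0.01 over all genes. Without the day 7 array of cow 3, an alternative chosen after seeing the data, CHI3L1 passed. Between day 14 and day 2, GPNMB was 2.06 ± 0.42 higher (adjusted p in limma 0.171), and 8 of the 10 genes were lower in all 3 cows. The share of all genes lower in all 3 cows was not counted. SPIC was 1.20 ± 0.24 lower on day 7 than on day 2, again in 3 of 3 cows (adjusted p in limma 0.0679), and passed without cow 3 or without its day 7 array.

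**Figure D3:**
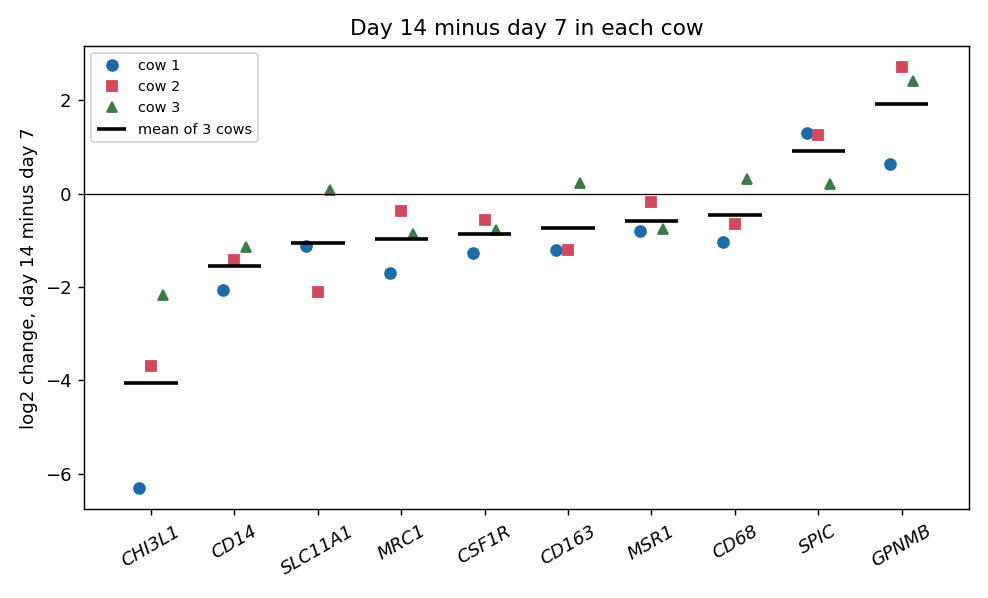
Log2 difference, day 14 minus day 7, for the brightest probe of each gene (horizontal axis, in order of the mean), with 1 point per cow and a bar at the mean of 3 cows. GPNMB at 1.92 and SPIC at 0.92 are the means above 0, and CHI3L1 at -4.06 is the lowest, and none of the 10 passed the test.

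Other genes of the same pathways were counted from lists chosen with earlier results of these data known, given as genes tested. Some genes, such as TREM2, stand in more than 1 list, so the counts of the lists are not independent. Of all genes, 1.9% passed as higher and 1% as lower on day 2, and 10.9% and 8.36% on day 7. On day 14 these shares were 0.0465% and 0.0542%. Counts of 1 or 2 genes of a pathway list on day 7 are near the share of all genes. At an unadjusted p below 0.05 in limma there were 7004, 11771 and 6890 of all 33539 probes on days 2, 7 and 14. Of 24 further macrophage and monocyte markers, 3 were higher on day 2 and 7 on day 7, with 0 lower, and 0 passed on day 14 (3 at an unadjusted p below 0.05 in limma). Their median changes were 1.23, 0.87 and 0.65 on days 2, 7 and 14. MMP12, a macrophage elastase, was at least 11.9-fold higher on day 2. The Fc receptor FCGR2B was higher by 1.37 on day 2 and 2.07 on day 7, and then, on day 14, lower than on day 7 by a log2 change of -1.67 ± 0.22 (adjusted p in limma 0.0493). The general macrophage markers AIF1 (1.75, 1.31 and 0.71 on days 2, 7 and 14) and TYROBP, an adaptor of activating receptors (2.28, 1.62 and 0.94), did not pass.

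Among 16 genes of the CSF1 axis and macrophage transcription factors, 3 passed as higher on day 2 and 5 on day 7, but 0 did on day 14 (2 at an unadjusted p below 0.05 in limma). Both ligands of CSF1R were among them: CSF1 with 1.40 on day 2 and 1.82 on day 7, and IL34 with 1.30 and 0.91. Their day 14 changes of 0.56 and 0.59 did not pass. TFEC, a transcription factor of the MiT family expressed in macrophages, was higher by 3.50 on day 2 and 2.40 on day 7. SPI1, the factor PU.1 that sets the myeloid lineage and belongs to the same ETS family as SPIC, was higher by 1.50 on day 7, and its 1.73 on day 2 and 0.77 on day 14 did not pass.

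Of 26 lipid-associated and lysosomal genes known beside GPNMB, 3 were higher and 1 lower on day 2, 5 higher and 2 lower on day 7, and 0 passed on day 14, the day on which GPNMB did (8 at an unadjusted p below 0.05 in limma). SPP1, a secreted phosphoprotein, was higher by 5.21 on day 2, and FABP5, a fatty acid carrier, by 2.52 on day 2 and 1.75 on day 7. TREM2, a lipid-sensing receptor, was higher by 2.41 on day 7, and its 2.96 on day 2 and 1.45 on day 14 did not pass. The cholesterol exporters ran the other way: ABCA1 was lower on day 2 by a log2 change of -2.10 and ABCG1 on day 7 by -1.50.

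Of 16 genes of haem and iron handling, 0 passed on day 2 (2 at an unadjusted p below 0.05 in limma), 3 were higher on day 7 and 0 passed on day 14 (1 unadjusted). HP, the haemoglobin scavenger haptoglobin, was at least 33.6-fold higher on day 7, and CP, the ferroxidase ceruloplasmin, was higher by 2.09. HP was nevertheless highest on day 2 in each cow, where it did not pass. Its log2 signals were -6.58, -7.86 and -6.43 at day 0, 0.04, 3.66 and -1.61 at day 2, and -4.14, 1.88 and -2.01 at day 7. HMOX1, the enzyme that breaks down haem, had changes of 2.00, 0.39 and 0.63, none of which passed.

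Of 16 further scavenger and lectin receptors, 1 was higher and 1 lower on day 2, and 3 were higher and 1 lower on day 7. The receptor for oxidised lipoprotein OLR1 was at least 7.36-fold higher on day 7, and LY75 was lower on both days, by -1.41 and -1.30. Of 12 genes around the lipopolysaccharide receptor, the TLR4-related CD180 alone passed, with 3.54 on day 2 and 3.91 on day 7. Of 12 inflammatory genes 2 were higher on day 2 and 4 on day 7, among them the monocyte attractant CCL2 with 3.59 and 2.92. Of 14 genes of alternative activation 0 passed on day 2 (2 unadjusted in limma), and 3 were higher and 1 lower on day 7. On day 14 no gene of these 4 lists passed, with 2 or 3 genes per list at an unadjusted p below 0.05 in limma. The 4 other chitinase family genes tested passed on no day (1 unadjusted on day 2, 1 on day 7 and 0 on day 14).

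The marker lists of other cell types differed from one another on the early days. Of 6 genes shared by all leukocytes, 3 were higher on day 2 and 4 on day 7, where 1.9% and 10.9% of all genes were, with mean log2 signals per array of 0.71 to 1.16 on day 2 and 0.13 to 1.73 on day 7, against -0.72 to -0.16 on day 0. PTPRC (CD45) was higher by 1.36 and 1.56, and its 1.14 on day 14 did not pass. Of 8 neutrophil markers, 1 passed on each early day, S100A12 with 3.78 and 2.54. Their mean log2 signals were -4.09 to -3.22 on day 0, -2.62 to -1.68 on day 2, -3.17 to -2.47 on day 7 and -3.03 to -2.56 on day 14. No epithelial marker of 10 and no stromal marker of 9 passed on any day (0 to 2 and 1 to 4 unadjusted in limma). The lymphoid and mast cell lists had median changes below 0 on day 2: -0.16 for 14 T and NK cell markers (3 of 14 above 0), -0.26 for 6 B and plasma cell markers (2 of 6) and -0.23 for 5 mast cell markers (1 of 5). Of the T and NK cell markers 1 was higher on day 2 and 2 on day 7, a share near that of all genes on day 7, and of 8 endothelial markers 1 and 3, while of 9 dendritic cell markers 0 passed on any day (1, 3 and 3 unadjusted in limma). Of the B and plasma cell markers 1 was higher on day 7, and of the mast cell markers 1 was lower on that day. On day 14 no gene of these lists passed. Their median changes were then 1.16 for all leukocytes (5 of 6 genes unadjusted in limma), 0.73 for neutrophil, 0.68 for dendritic cell and 0.63 for T and NK cell markers (5 of 14). They were 0.44 for stroma, 0.35 for mast cells, 0.30 for epithelium, 0.21 for B and plasma cells and 0.15 for endothelium. The part of these cells in the changes of the 10 genes was not tested.

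The haemoglobin genes of the erythroid list had their highest signals on day 14, the day of GPNMB and the second SPIC maximum. The mean log2 signal of the 4 erythroid genes was -2.80 to -2.57 on day 14, against -4.56 to -4.33 on day 0, and 0 of 4 passed (3 at an unadjusted p below 0.05 in limma, HBB and HBA higher and AHSP lower). HBB, the beta chain of haemoglobin, had log2 signals of -1.57, -2.16 and -2.51 on day 14, against -7.59, -7.40 and -4.93 on day 0 (4.56 ± 0.93, adjusted p in limma 0.0710). HBA, an alpha chain, had a day 14 change of 2.23, AHSP, which stabilises that chain, of -0.44, and the red cell anion exchanger SLC4A1 of 0.49, with 0.05, 0.10 and 1.33 in cows 1, 2 and 3. These 4 genes are named after their values were seen. The part of blood in the day 14 values was not tested.

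**Figure D4:**
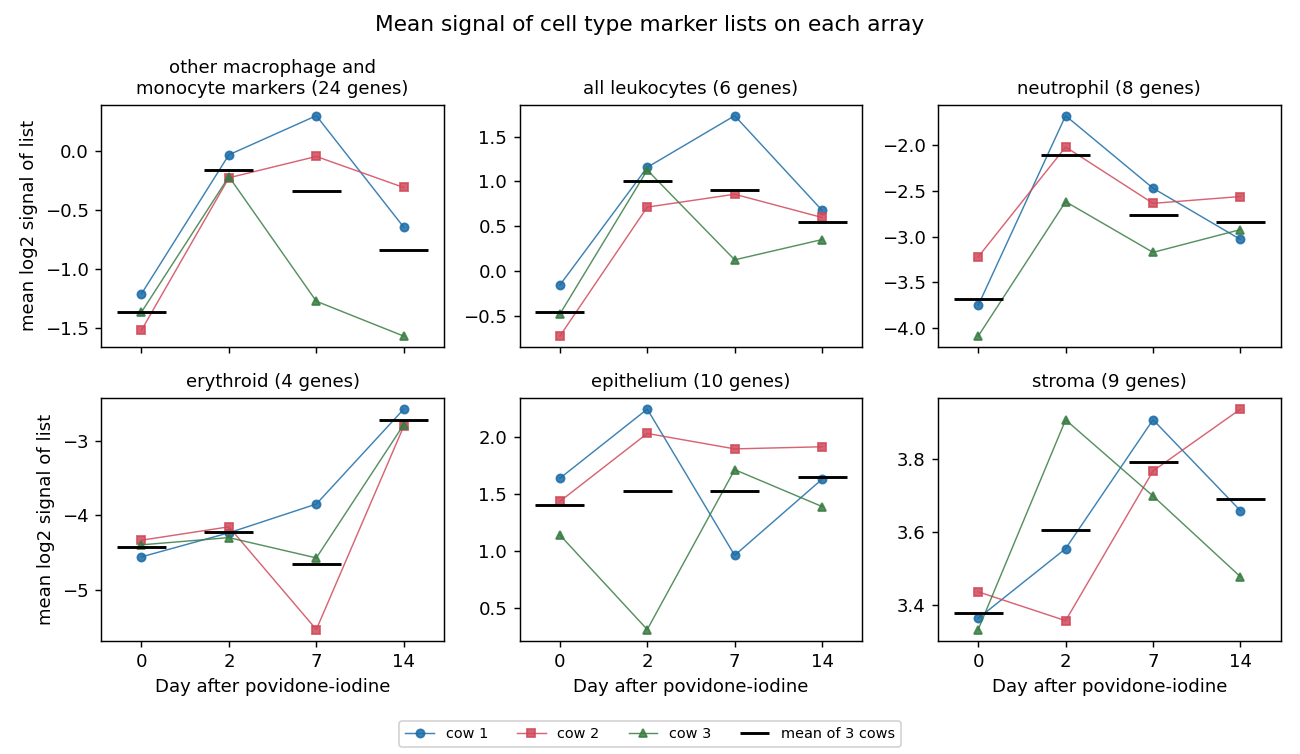
Mean log2 signal over the genes of 6 marker lists (vertical axis, own range in each panel) on each array by day (horizontal axis), with 1 line per cow and a bar at the mean of 3 cows. The erythroid list lies between -2.80 and -2.57 on day 14 and at or below -3.85 on every other array, and the 24 other macrophage markers are lowest in cow 3 on days 7 and 14.

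The named genes most like GPNMB over the 12 arrays, by the Pearson correlation of log2 signal, were PMEL (0.884), ADAMTS14 (0.873), AP2A1 (0.866), CTSD (0.864) and B3GNT8 (0.859). PMEL, a melanosome protein of the same family as GPNMB, had mean log2 signals of -2.83, -2.56, -2.21 and -0.04 on days 0, 2, 7 and 14, and CTSD encodes the lysosomal protease cathepsin D. Those most like SPIC were PHF19 (0.925), BUB1 (0.914), SPC25 (0.907), ANLN (0.906) and KIF2C (0.906). BUB1, SPC25, ANLN and KIF2C encode proteins of mitosis or cytokinesis. These correlations are a description, since the 12 arrays fall into 4 days and 3 cows.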

How the data were processed

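The labels give the cow and day of every sample, and the design text states that the same animals were biopsied on each day. The scanner files deposited by the authors hold processed intensity values per spot, which Agilent Feature Extraction had detrended within the array (its version is 11.5.1.1 per the file headers, 10.5.1.1 in the submitters' processing notes). The deposited value table holds log2 values of the same arrays. Set against the scanner files, each column is log2 intensity minus the array's 75th percentile and a centre per probe; it was used to name the arrays and as an alternative.

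From the intensity, log2 values minus each array's 75th percentile were computed, 1417 control spots and 31 of 43653 probes with outlier flags were left out, and spots of 1 probe were averaged. Probes well above background on at least 3 of 12 arrays were kept (33539). The fit used limma 3.58.1 in R 4.3.3, with a term for each day, the cow as block, 6 residual and 2.33 prior degrees of freedom, and Benjamini-Hochberg adjustment over all these probes. The scripts were tested on simulated data. No probe was saturated.

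The design text states the pairing by cow. The 18 same-cow array pairs had a mean correlation of 0.285 in their deviations from the day means. Their lowest was 0.0235, and 15 exceeded 0.1. The 48 pairs of different cows had a mean of -0.221, which the centring on day means lowers by itself, and 4 exceeded 0.1. Each same-cow pair also shares a slide, so these values cannot tell a cow from a slide.

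All probes of the 10 names were reported. From each list of other genes up to 4 past the threshold per comparison were named by the size of the change, beside AIF1, TYROBP, PTPRC, SPI1, HMOX1, CSF1, IL34 and TREM2, and for GPNMB and SPIC the 5 genes of highest correlation. Members and lists were chosen with earlier results of these data known.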

Additional observations from a re-analysis of the deposited data

How the results depend on the processing

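The counts of the 10 genes that passed, 4 on day 2, 6 on day 7 and 2 on day 14 against day 0 and 0 in each comparison of later days, depended on the arrays used. With the samples of the file links they were 0 on days 2, 7 and 14 (beside 0, 0 and 237 of all probes). With array weights, whose estimation stopped before it converged, they were 8 on day 2 (beside 5078 of all probes). They were then 2 between day 7 and day 2 (10147), 10 between day 14 and day 2 (15532) and 6 between day 14 and day 7 (9411). With only the days compared in the fit they were 2 on day 7 and 0 on day 14 (beside 1879 and 0 of all probes). Scaling to the median or no filter gave 0 on day 14 (beside 16 and 4 of all probes). Leaving out 1 cow gave 0 to 5 on day 2, 0 to 8 on day 7, 0 in each case on day 14 and 0 to 1 between day 7 and day 2. The upper counts, all without cow 3, stood beside 841, 6229 and 2132 of all probes in that order. On day 14 the number of all probes that passed was also 0 without any 1 of the cows. The normexp correction and, chosen after seeing the data, the fit without the day 7 array of cow 3 each gave 1 between day 7 and day 2 and 1 between day 14 and day 7. Of all probes, 431 and 461 passed with the normexp correction, and 189 and 158 without that array. Without the block that pairs the arrays of a cow, the day 14 count was 1 (GPNMB, beside 41 of all probes). CSF1R and SPIC then no longer passed on day 7 (4 left, beside 4445 of all probes), and the other counts stayed within 1.5 times. The remaining alternatives (the value table, quantile normalisation, a filter at 6 arrays and leaving out the day 2 array of cow 3) kept every count within 1.5 times.

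With the samples of the file links, and under no other alternative run, changes that had passed turned sign, 21 in all, and 5 others no longer passed. On day 2 these were CD68 (-0.40 and -0.45 for its 2 probes), CD14 (-0.66), SLC11A1 (-0.30 and -0.40), CHI3L1 (-2.01, -1.72 and -2.23) and MSR1 variant 2 (-0.64). On day 7 they were CD68 (-0.57), CD14 (-0.25 and -0.17), CSF1R (-0.53, -0.47 and -0.93), SPIC (-0.22), SLC11A1 (-2.14), CHI3L1 (-1.89, -1.73 and -1.81) and MSR1 variant 2 (-0.46). By the file links, the day 0 arrays are those that the table columns name days 0, 2 and 7 of cow 1. The linked day 2 arrays are then day 14 of cow 1 and days 0 and 2 of cow 2. The linked day 7 arrays are days 7 and 14 of cow 2 and day 0 of cow 3. Each linked group thus mixes days of the other naming. Which naming is right was not tested. The naming of the arrays thus decides most directions given here, and dim probes (SPIC, SLC11A1, CHI3L1 on day 0) are limited by signal over background.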
